A study of Mus musculus with 15 samples.

Results

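Cbx2 binding outside Mel18 sites was examined in early cardiac mesoderm precursors (MES) made from mouse E14Tg2A embryonic stem cells (ESCs). Peaks of 5 ChIP-seq lists were joined wherever they shared at least 1 bp, which gave 11871 regions on chromosomes 1 to 19. Of these, 3444 held a MES Cbx2 peak. The 928 regions described here were chosen by the presence of a MES Cbx2 peak and the absence of a MES Mel18 peak (26.9% of the Cbx2 regions, exact Clopper-Pearson 95% interval 25.5 to 28.5). The remaining 2516 Cbx2 regions held a MES Mel18 peak, and 1050 regions held MES Mel18 without Cbx2.

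The lists came from 1 sample each. The ESC group was the undifferentiated E14Tg2A line kept in 2i medium with LIF, with chromatin precipitated by a Mel18 antibody. The MES group was derived from the same line with BMP4, typically at 0.1 to 0.3 ng/ml, with chromatin precipitated by antibodies to Mel18, Cbx2, Ring1b or RYBP. All lists thus rest on 1 parental line, no list came from cells labelled as depleted of a subunit, and per the labels the Mel18 antibody in ESCs and MES came from a single lot. The identity of the MES cells was not checked here, because a peak list carries no expression values, and the 9 RNA-seq samples and the IgG sample were not analysed here.

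Polycomb repressive complex 1 (PRC1) is a family of chromatin complexes built around Ring1b or its relative Ring1a, which ubiquitinate histone H2A. Each complex holds a PCGF subunit that defines its type. Mel18 (Pcgf2) and its close relative Bmi1 are the PCGF subunits of canonical PRC1, which also carries a CBX protein. Cbx2 is such a CBX protein: its chromodomain reads histone H3 trimethylated by Polycomb repressive complex 2, and it can compact nucleosomes. RYBP takes the place of CBX in variant PRC1, which can form with Mel18 or with other PCGF subunits. In ESCs canonical PRC1 is rich in Cbx7, whereas Cbx2 is known as a CBX protein of differentiating cells. Ring1b marks all forms of PRC1 that use it, so Cbx2 regions without Mel18 can be sorted by which other subunits were mapped there.

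The regions were small and lay in the lower part of the Cbx2 list. All but 1 of the 928 held a single Cbx2 peak, and their Cbx2 peaks numbered 929 of 3600 on these chromosomes. The Cbx2 peak had a median width of 1358 bp (quartiles 951 and 1945 bp, widest 6513 bp). Its score, a value the authors gave each peak and which started at 50, had a median of 63.9 (quartiles 55.1 and 83.0). The scale of the score was not stated in the deposited files, so it was used only to rank peaks within a list. In 4 of the 5 lists, RYBP excepted, many peaks shared one high value (325 in the Cbx2 list), so ranks among the strongest peaks were tied. The highest score among the 928 was 365, which lay at the 68.7th percentile of the Cbx2 list, and the median lay at the 18.3rd. When all Cbx2 regions were divided into 4 quartiles by Cbx2 score, the regions without Mel18 made up 588 of 861 in the lowest quartile (68.3%), 300 of 861 in the second (34.8%), 40 of 861 in the third (4.65%) and 0 of 861 in the highest (interval up to 0.428%). These values follow from how the regions were chosen and are given as a description.

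Presence or absence of a peak rests on the authors' threshold, and read depth is unknown for every list. In 379 of the 928 regions the Cbx2 score was under 60, close to the lowest score listed. Just outside the rule, 83 Cbx2 regions counted as holding Mel18 had a Mel18 score under 60. The 5 regions nearest to a MES Mel18 peak were separated from it by 19, 19, 31, 43 and 57 bp, whereas the smallest stretches shared by a Cbx2 and a MES Mel18 peak were 211, 221, 242, 265 and 286 bp. A further 5 regions counted as holding Mel18 although their Cbx2 and Mel18 peaks met only through a peak of another list. Since no list had a replicate, differences between lists were not tested. Intervals on shares are exact Clopper-Pearson intervals at 95%, cover counting error only and treat regions as independent.

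Many of the Cbx2 regions without Mel18 held no other mapped subunit, and RYBP was found more often than Ring1b. With only the upper 50% of each list by score, RYBP stood at 54.3% and Ring1b at 55.3%, so this order turned. RYBP peaks were present at 431 of 928 regions (46.4%, interval 43.2 to 49.7), against 77.2% of all Cbx2 regions and 56.3% of all merged regions. Ring1b peaks were present at 321 (34.6%, interval 31.5 to 37.7), against 78.8% of all Cbx2 regions and 63.9% of all merged regions. ESC Mel18 peaks were present at 189 (20.4%, interval 17.8 to 23.1), against 65.3% of all Cbx2 regions and 44.3% of all merged regions. None of these 3 lists had a peak at 428 regions (46.1%, interval 42.9 to 49.4), against 14.1% of all Cbx2 regions. Those 428 regions were Cbx2 peaks on their own.

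In Cbx2 regions with MES Mel18, Ring1b and RYBP changed places and ESC Mel18 was again last, with Ring1b at 95.1% (interval 94.2 to 95.9), RYBP at 88.5% (87.2 to 89.7) and ESC Mel18 at 81.8% (80.3 to 83.3). Cbx2 peaks on their own were 58 of those 2516 regions (2.31%). The converse class, MES Mel18 without Cbx2, had Ring1b at 53.3% (interval 50.3 to 56.4), RYBP at 47.5% (44.5 to 50.6) and ESC Mel18 at 40.0% (37.0 to 43.0). None of the 3 lists had a peak at 35.7% of that class (interval 32.8 to 38.7), so peaks on their own were common there too. Compared with that class, Cbx2 regions without Mel18 had a similar share with RYBP and lower shares with Ring1b and ESC Mel18.

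**Figure D1:**
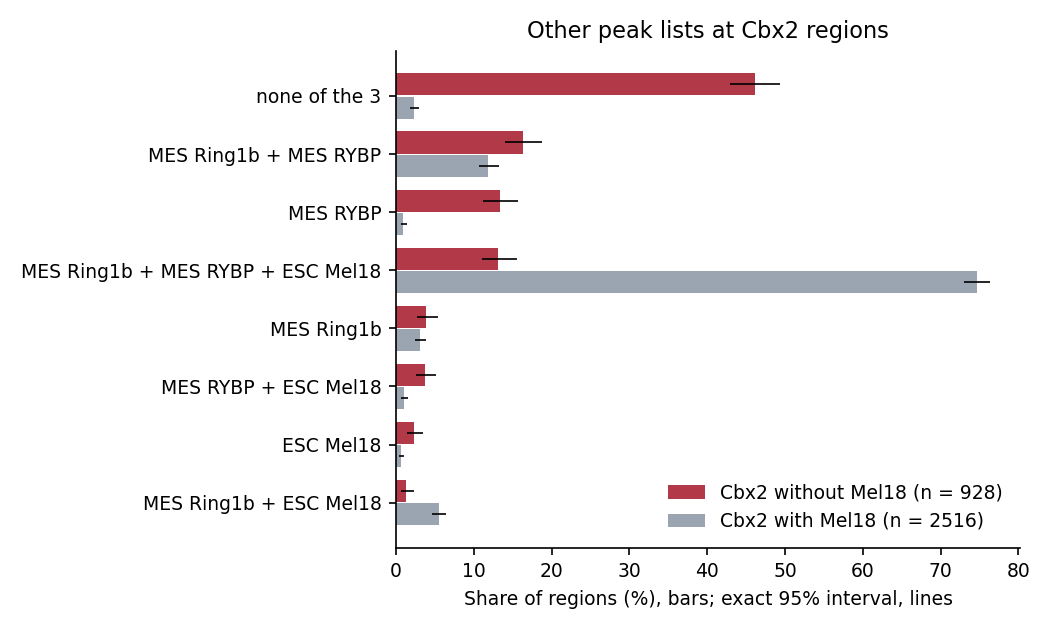
Share of regions (%, horizontal axis) with each of the 8 combinations of the other lists, for 928 Cbx2 regions without Mel18 (red) and 2516 with Mel18 (grey), with exact 95% intervals as lines. Without Mel18 the commonest combination was none of the 3 lists (46.1%), and with Mel18 it was all 3 lists (74.7%).

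Sorted by combination, the 928 regions fell into 4 large classes and 4 small ones. After the 428 regions with Cbx2 alone came 151 with Ring1b and RYBP (16.3%), 124 with RYBP only (13.4%) and 122 with Ring1b, RYBP and ESC Mel18 (13.1%). The small classes were 36 regions with Ring1b only, 34 with RYBP and ESC Mel18, 21 with ESC Mel18 only and 12 with Ring1b and ESC Mel18. Ring1b and RYBP, the catalytic and the variant PRC1 subunit, were thus found together at 273 regions (29.4%). This was below the 71.2% of all Cbx2 regions and the 41.9% of all merged regions.

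RYBP without Ring1b was found at 158 regions (17%, interval 14.7 to 19.6), against 1.95% (interval 1.44 to 2.57) of Cbx2 regions with Mel18 and 7.05% (5.57 to 8.77) of Mel18 regions without Cbx2. Over all merged regions it was 14.4% (interval 13.8 to 15.1), near the share in the Cbx2 regions without Mel18. Ring1b without RYBP showed the other order. It was found at 48 regions (5.17%, interval 3.84 to 6.8), against 8.55% (7.48 to 9.71) of Cbx2 regions with Mel18 and 12.9% (10.9 to 15.0) of Mel18 regions without Cbx2, and 22% of all merged regions. Of the RYBP-bearing Cbx2 regions without Mel18, 63.3% (interval 58.6 to 67.9) also held Ring1b, whereas 97.8% (97.1 to 98.4) did so where Cbx2 and Mel18 were both present. Of the Ring1b-bearing Cbx2 regions without Mel18, 85.0% (interval 80.7 to 88.8) also held RYBP, against 91.0% (89.8 to 92.1) with Mel18. At Mel18 regions without Cbx2 the corresponding shares were 85.2% (81.7 to 88.2) and 75.9% (72.1 to 79.4). Over all regions without MES Mel18, with or without Cbx2, 3959 held RYBP and 4628 held Ring1b. Both were present at 1700 of these without ESC Mel18 and at 668 with it. RYBP without Ring1b was thus not particular to the Cbx2 regions.

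Low Cbx2 scores went together with fewer partners, so the shares were also compared within quartiles of the Cbx2 score. In the lowest quartile, Ring1b was found at 26.4% of regions without Mel18 and 81.3% of those with it, RYBP at 35.5 and 76.2%, and ESC Mel18 at 16.3 and 62.6%. In the second quartile the corresponding shares were 49.3 and 91.4% for Ring1b, 67.0 and 78.6% for RYBP, and 26.7 and 69.0% for ESC Mel18. The third quartile held 40 regions without Mel18, with Ring1b at 45.0%, RYBP at 52.5% and ESC Mel18 at 32.5%, against 97.6, 89.9 and 83.3% with Mel18. Intervals of regions with and without Mel18 did not overlap in any of these 9 comparisons. The gap was narrowest for RYBP in the second quartile, where the interval was 61.4 to 72.3% without Mel18 and 75 to 81.9% with it.

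Weighting the quartiles of Cbx2 regions with Mel18 to the score make-up of those without it lowered their shares to 85.3% for Ring1b, 77.6% for RYBP and 65.6% for ESC Mel18. Weighting by quartiles of Cbx2 peak width gave 84.4, 70.0 and 60.9%. All of these stayed above the 34.6, 46.4 and 20.4% found without Mel18. The part of Cbx2 peak strength in the remaining differences was not tested.

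**Figure D2:**
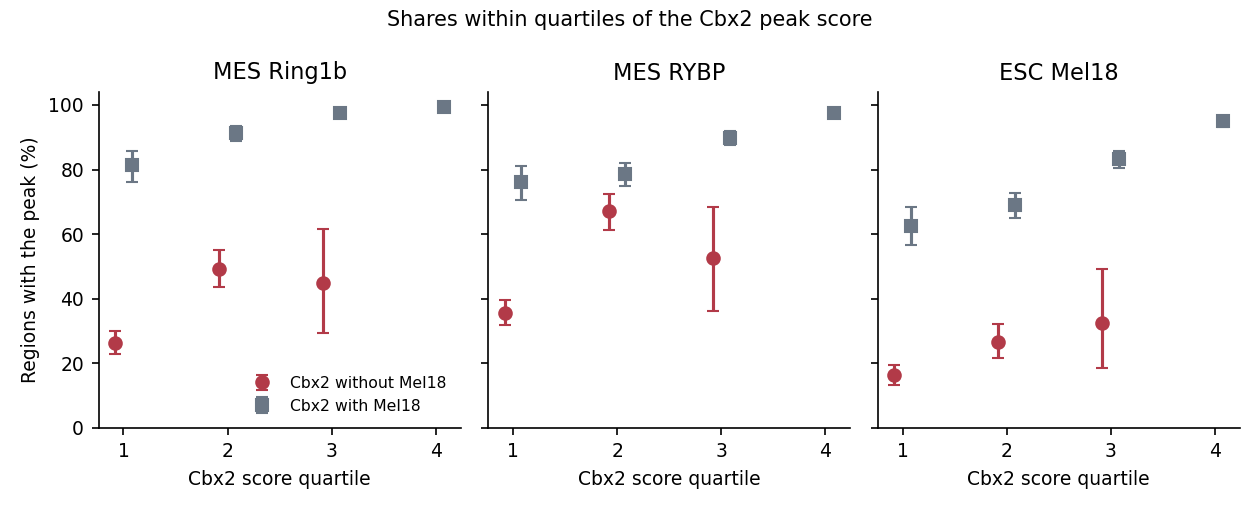
Share of Cbx2 regions (%, vertical axis) with a MES Ring1b, MES RYBP or ESC Mel18 peak, by quartile of the Cbx2 peak score (1 lowest), for regions without Mel18 (red circles) and with Mel18 (grey squares), with exact 95% intervals. The highest quartile held 0 regions without Mel18, and the narrowest gap was that of RYBP in the second quartile (67.0 against 78.6%).

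The regions without Mel18 also differed from Cbx2 regions with a weak Mel18 peak. Among Cbx2 regions with Mel18, the quartile of lowest Mel18 score (50.01 to 135.9) had Ring1b at 83.1% (interval 80.0 to 86.0), RYBP at 77.3% (73.8 to 80.5) and ESC Mel18 at 59.3% (55.3 to 63.2). The highest Mel18 quartile had 99.8, 98.9 and 96.8%. Without a Mel18 peak the shares were 34.6% for Ring1b, 46.4% for RYBP and 20.4% for ESC Mel18. Since Ring1b already stood at 83.1% in the lowest quartile, little room was left for a further rise. The sizes of its steps therefore cannot be compared. ESC Mel18, which had more room, rose from 20.4 to 59.3% and then to 96.8%. In this lowest Mel18 quartile 7.95% of regions (50 of 629) held Cbx2 and Mel18 with none of the other lists, against 46.1% where Mel18 was absent. The median Cbx2 score was 91.1 in the lowest Mel18 quartile and 63.9 without Mel18, so Cbx2 score moved with this comparison too.

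**Figure D3:**
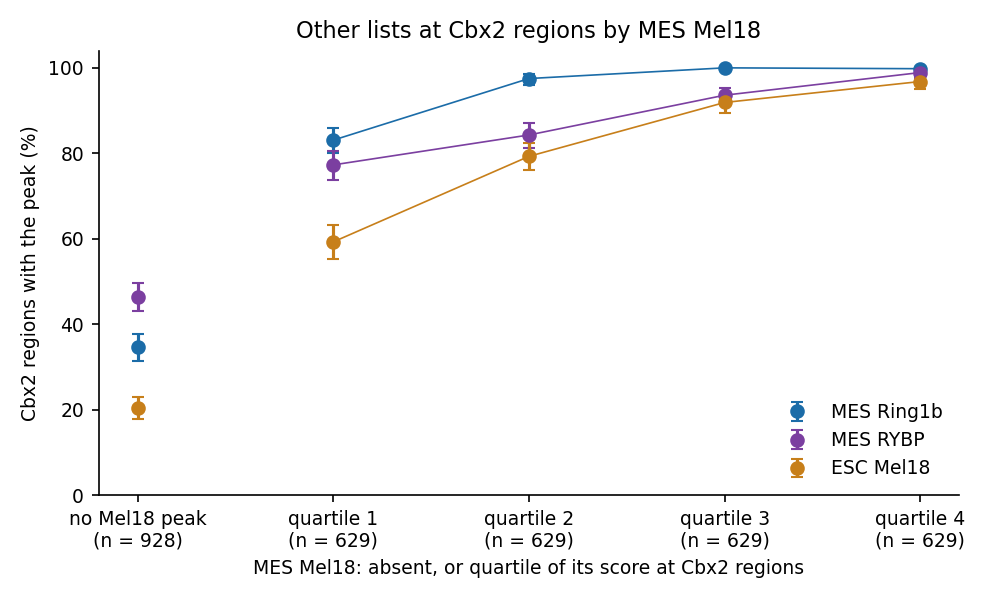
Share of Cbx2 regions (%, vertical axis) with a MES Ring1b (blue), MES RYBP (purple) or ESC Mel18 peak (orange), for regions with no MES Mel18 peak and for 4 quartiles of the MES Mel18 score (629 regions each), with exact 95% intervals. Ring1b was at 34.6% without Mel18 and at 83.1% in the lowest Mel18 quartile, and RYBP lay above Ring1b only where Mel18 was absent.

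Where partner peaks were present without Mel18, they were of middle rank in their own lists. Each peak was ranked by the authors' score within its list, with 100 as the highest percentile. Ring1b peaks at the 321 regions had a median percentile of 45.5 (quartiles 26.6 and 62.5), and 24 of them (7.48%) lay in the top quartile of the Ring1b list. RYBP peaks at the 431 regions ranked higher, with a median of 55.1 (quartiles 31.5 and 72.8) and 99 (22.97%) in the top quartile of the RYBP list. ESC Mel18 peaks at the 189 regions had a median of 45.7, and 16 (8.47%) lay in the top quartile. At Cbx2 regions with Mel18 the median percentiles were 82.3 for Ring1b, 75.2 for RYBP and 77.6 for ESC Mel18. At Mel18 regions without Cbx2 they were 53.1, 51.4 and 57.7. For RYBP the quartiles at Mel18 regions without Cbx2 were 30.6 and 71.4, so that its ranks in these 2 classes covered much the same range. Within Cbx2 score quartiles the RYBP medians were close with and without Mel18. They were 49.9 without and 55.3 with Mel18 in the lowest quartile, 58.9 and 61.6 in the second, and 71.2 and 68.8 in the third, where 21 regions without Mel18 held RYBP. For Ring1b the corresponding medians were 45.7 and 59.9, 43.3 and 65.1, and 49.9 and 79.4. For ESC Mel18 they were 38.8 and 59.8, 49.9 and 65.3, and 41.6 and 71.8. The RYBP medians thus differed by less within score quartiles than over all regions, and those of Ring1b and ESC Mel18 stayed lower without Mel18 in each of these 3 quartiles.

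**Figure D4:**
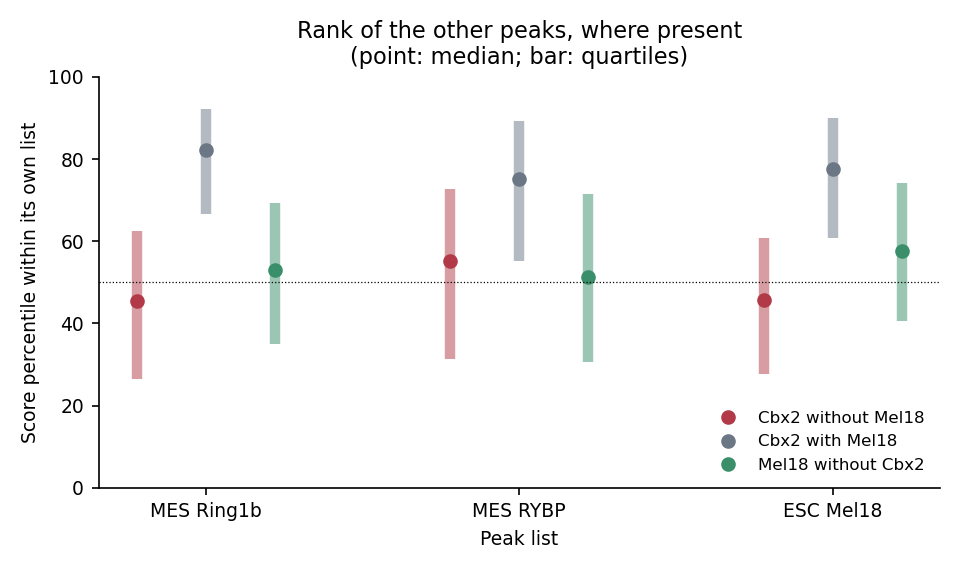
Score percentile of MES Ring1b, MES RYBP and ESC Mel18 peaks within their own lists (vertical axis; points are medians, bars span the quartiles), for Cbx2 regions without Mel18 (red), Cbx2 regions with Mel18 (grey) and Mel18 regions without Cbx2 (green). In the first class RYBP had the highest median (55.1), and all 3 medians lay below those of Cbx2 regions with Mel18, although within the third Cbx2 score quartile the RYBP median was the higher one without Mel18 (71.2 against 68.8).

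RYBP peaks were longer relative to the Cbx2 peak where Mel18 was absent, although shorter in bp. Only lengths were compared, not shared bases. Without Mel18, the median length of RYBP peaks was 83.3% of the Cbx2 length of the region, and the RYBP length was the greater in 24.6% of regions. With Mel18 these values were 61.3% and 5.88%. The Ring1b median showed the other direction, at 63.5% of the Cbx2 length without Mel18 and 77.1% with it. The Ring1b length was the greater in 12.5% of regions without Mel18 and 11.0% with it. Median peak widths were 1078 bp for Ring1b and 1449 bp for RYBP at the regions without Mel18, and 2176 and 1964 bp at those with it.

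The classes differed among themselves in Cbx2 width and in the strength of their partners. Regions with Cbx2 alone had the narrowest Cbx2 peaks, with a median of 966.5 bp (quartiles 766 and 1293 bp) and a median score of 58.05. Those with Ring1b, RYBP and ESC Mel18 had a median Cbx2 width of 2004 bp (quartiles 1593 and 2640 bp) and a median score of 73.6. Regions with Ring1b and RYBP lay between, at 1793 bp, and those with RYBP only at 1612 bp. RYBP peaks had a median percentile of 43.2 where RYBP was the only partner and 65.4 where Ring1b and ESC Mel18 were present too. For Ring1b peaks the median percentile was 26.9 where Ring1b was the only partner and 51.8 where all 3 were present. Peaks of a partner found alone thus had lower median ranks than peaks of the same partner found with both others.

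Distance to Mel18 divided the regions further. The gap to the nearest MES Mel18 peak had a median of 134 kb (quartiles 21.4 and 396 kb) and ran from 19 bp to 10294 kb. A MES Mel18 peak lay within 1 kb of 89 regions (9.59%) and at 1 to 10 kb from 100 more (10.8%). The gap was 10 to 100 kb at 217 regions, 100 kb to 1 Mb at 438 (47.2%) and 1 Mb or more at 84 (9.05%). Of the 928 regions, 739 (79.6%) thus lay 10 kb or more from Mel18 and are called remote below. The other 189 (20.4%) are called near. Distances of other regions to Mel18 are not given, so whether these gaps are large or small for such regions was not tested.

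Regions next to Mel18 were mostly Cbx2 peaks on their own. Within 1 kb of a MES Mel18 peak, 76 of 89 regions (85.4%, interval 76.3 to 92.0) held none of the other lists. Ring1b and RYBP were each at 7 of them (7.87%, interval 3.22 to 15.5). Where a partner peak bridged the gap to Mel18, the region counted as holding Mel18, as in the 5 regions described above. This rule lowers the share with partners at short range. At 1 to 10 kb, 60 of 100 regions held none (interval 49.7 to 69.7%), 25 held Ring1b and 30 held RYBP. At 10 to 100 kb it was 38.7%, with Ring1b at 46.1% (interval 39.3 to 53.0) and RYBP at 53.0% (46.1 to 59.8). Median Cbx2 score hardly moved with distance, from 65.5 under 1 kb to 62.9 at 100 kb to 1 Mb and 69.8 at 1 Mb or more. Median Cbx2 width did differ, at 1123 bp under 1 kb and 1363 to 1448 bp in the farther bins. The part of width in the shares by distance was not tested.

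The Mel18 peaks beside the near regions ranked above the middle of their list. For the 89 regions under 1 kb away, the neighbouring Mel18 peak had a median percentile of 71.45 in its list and was typically wide, at 2453 bp. All MES Mel18 peaks on these chromosomes had medians of 50.1 and 1878 bp. The merged region of that neighbour held Cbx2 in 77 of 89 cases (86.5%), Ring1b in 78 (87.6%) and RYBP in 70 (78.7%). Over all 3566 MES Mel18 regions the shares were 70.6% for Cbx2, 82.8% for Ring1b and 76.4% for RYBP, and those of Ring1b and RYBP lay inside the intervals of the neighbours (79.0 to 93.7 and 68.7 to 86.6%). The near regions therefore mostly lay beside a site that held Cbx2 as well, set off from it by a gap between peaks.

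Far from Mel18, partners were commoner, and only in the second score quartile did the interval for RYBP overlap that of Mel18 sites. In the 739 regions 10 kb or more away, RYBP was at 53.3% (interval 49.6 to 57.0), Ring1b at 39.1% (35.6 to 42.7) and ESC Mel18 at 23.1% (20.1 to 26.4). In the second Cbx2 score quartile, these remote regions held RYBP in 184 of 243 cases (75.7%, interval 69.8 to 81.0), and the interval overlapped that of Cbx2 regions with Mel18 (75 to 81.9%). Ring1b at the same 243 regions stood at 54.3% (interval 47.8 to 60.7) against 91.4% (88.8 to 93.6) with Mel18, and ESC Mel18 at 29.2% (23.6 to 35.4) against 69.0% (65.0 to 72.8). In the lowest score quartile the remote regions held RYBP at 40.7% and Ring1b at 30.1%, below the 76.2 and 81.3% with Mel18. In the third, 19 of 27 remote regions held RYBP (70.4%, interval 49.8 to 86.2), below the 89.9% (87.6 to 91.9) with Mel18. Ring1b in the third quartile was at 59.3% of remote regions, against 97.6% with Mel18. At 1 Mb or more, 84 regions held RYBP at 57.1% (interval 45.9 to 67.9), ESC Mel18 at 36.9% (26.6 to 48.1) and Ring1b at 33.3% (23.4 to 44.5).

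**Figure D5:**
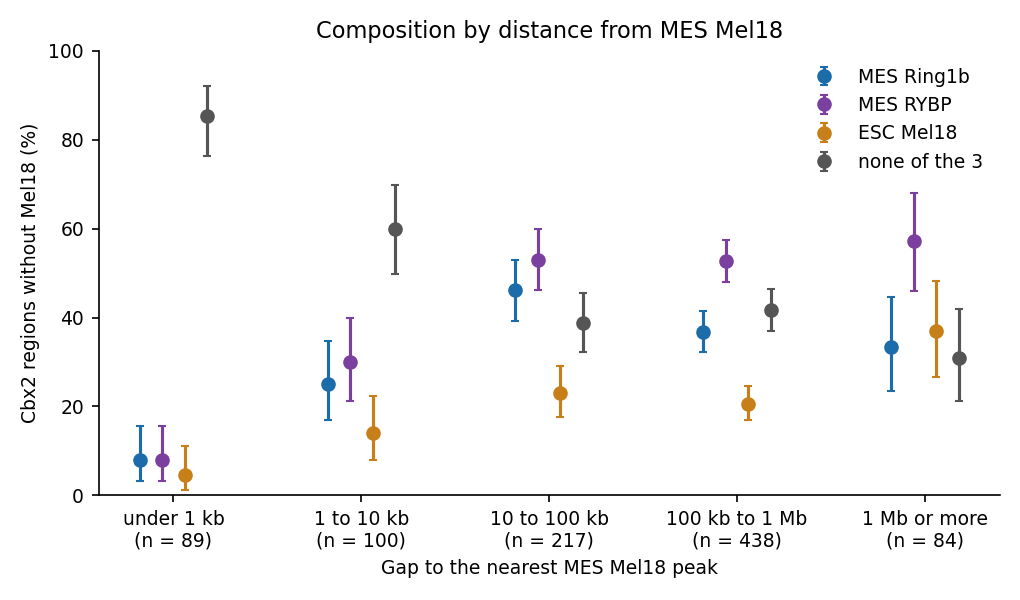
Share of Cbx2 regions without Mel18 (%, vertical axis) that held MES Ring1b (blue), MES RYBP (purple), ESC Mel18 (orange) or none of the 3 (grey), by gap to the nearest MES Mel18 peak, with exact 95% intervals and the number of regions per class. The share with none was 85.4% under 1 kb and 31.0% at 1 Mb or more.

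Cbx2 peaks on their own were divided by a gap of 10 kb to Mel18. Of the 428, 136 lay under 10 kb from a MES Mel18 peak, and Ring1b had a peak within 10 kb of 130 of these (95.6%). Ring1b was at 82.8% of all MES Mel18 regions, so a Ring1b peak close by is common beside any Mel18 site. The other 292 lay 10 kb or more from Mel18. Only 22 of them (7.53%, interval 4.78 to 11.2) had a Ring1b peak within 10 kb, 26 (8.90%, interval 5.90 to 12.8) a RYBP peak and 14 (4.79%, interval 2.65 to 7.91) an ESC Mel18 peak. In 253 of the 292 (86.6%) no peak of any other list lay within 10 kb, so for these the Cbx2 list alone had a peak in the neighbourhood. The same counts are not given for other regions as far from Mel18, so whether these shares are low was not tested.

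Regions with an ESC Mel18 peak were Mel18 sites in the undifferentiated cells and had no Mel18 peak in MES. There were 2775 merged regions with ESC Mel18 and no MES Mel18, and the 189 with Cbx2 made up 6.81% of them (interval 5.90 to 7.81). At these 189 regions Ring1b was found in MES at 70.9% (interval 63.9 to 77.3) and RYBP at 82.5% (76.4 to 87.7). At the 2586 without Cbx2, Ring1b was at 28.8% (interval 27.1 to 30.6) and RYBP at 29.0% (27.2 to 30.8). Their ESC Mel18 peaks also ranked higher, with a median percentile of 45.7 against 27.3, and were wider, with a median of 1003 against 774 bp. The 739 regions without ESC Mel18 had Ring1b at 25.3% and RYBP at 37.2%.

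Among regions without MES Mel18 but with Ring1b, RYBP or ESC Mel18, the share with Cbx2 was higher in each combination that held RYBP than in those that did not. Regions with none of these lists are left out, since without MES Mel18 they all hold Cbx2 by construction. Cbx2 was present at 18.3% (interval 15.4 to 21.4) of the 668 such regions with Ring1b, RYBP and ESC Mel18, at 14.3% (10.1 to 19.5) of the 237 with RYBP and ESC Mel18, and at 8.88% (7.57 to 10.3) of the 1700 with Ring1b and RYBP. It was at 9.16% (7.67 to 10.8) of the 1354 with RYBP only, 5.66% (2.96 to 9.68) of the 212 with Ring1b and ESC Mel18, 1.76% (1.23 to 2.43) of the 2048 with Ring1b only and 1.27% (0.786 to 1.93) of the 1658 with ESC Mel18 only. Intervals of neighbours in this list overlapped, except those of Ring1b with ESC Mel18 and Ring1b only. With MES Mel18 the shares in the same order were 86.7, 47.3, 68.5, 33.8, 68.8, 51.7 and 28.1%. Since Cbx2 and Mel18 presence chose the regions, this contrast is a description. Without Mel18, then, Cbx2 lay at a larger share of RYBP-only than of Ring1b-only regions. With Mel18 the Ring1b-only share was the larger, but the intervals of 22.8 to 46.3% (RYBP only) and 43.4 to 59.9% (Ring1b only) overlapped.

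Named regions are given by their mm9 coordinates, and no gene or sequence is given for them, since no genome or annotation of that build was used here. The 2 regions with the highest Cbx2 scores were named for each combination. With Ring1b, RYBP and ESC Mel18, these lay at chr17:83612223-83616918 and chr15:74915853-74917790. The first had a Cbx2 score of 260.51, with Ring1b at the 61.4th, RYBP at the 95.5th and ESC Mel18 at the 83.4th percentile. It held 3 ESC Mel18 peaks and had no MES Mel18 peak for 413 kb. In the second the Cbx2 score was 253.05 and RYBP ranked at the 91.8th percentile, but Ring1b at the 12.2nd and ESC Mel18 at the 1.41st, close to the threshold of their lists. Both thus held a RYBP peak of high rank, the former with a strong ESC Mel18 peak and the latter with marginal Ring1b and ESC Mel18 peaks.

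With Ring1b and RYBP only, the regions lay at chr4:62625834-62627348 (Cbx2 score 228.19) and chr11:102679090-102681345 (199.83). Their RYBP peaks stood at the 71.7th and 93.5th percentiles and their Ring1b peaks at the 44.2nd and 61.9th. With RYBP only, they lay at chr2:48668814-48670824 (206.84) and chr13:9762634-9764711 (201.30), where RYBP ranked at the 18.6th and 64.5th percentiles. With RYBP and ESC Mel18, they lay at chr12:3805636-3809135 (171.04) and chr4:128481347-128484708 (147.99). The chromosome 12 region held a RYBP peak at the 96.0th percentile with no Ring1b peak. At the chromosome 4 region from 128481347 RYBP ranked at the 17.9th percentile. In 4 of these 6 regions RYBP ranked above the middle of its list. The median over all 431 Cbx2 regions without Mel18 that held RYBP was 55.1.

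With Ring1b only, they lay at chr1:172773229-172774240 (350.14) and chr6:83024959-83028957 (213.16), with Ring1b at the 18.0th and 10.3rd percentiles. With Ring1b and ESC Mel18, they lay at chr18:37853731-37855393 (140.89) and chr11:114624630-114627167 (129.21), with Ring1b at the 54.9th and 59.6th percentiles. The chromosome 18 region was 2.72 kb from a MES Mel18 peak, and the one on chromosome 11 was 20.1 kb away. Among regions far from Mel18, chr12:92826454-92829401 held the Ring1b peak of highest rank named here, at the 78.1st percentile, with a Cbx2 score of 209.87, no RYBP or ESC Mel18 peak and a gap to Mel18 of 4099 kb.

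The highest Cbx2 score of all 928 regions belonged to a Cbx2 peak on its own, at chr1:157591877-157595311 (365.25), which was 87 bp from a MES Mel18 peak. The next such region, chr10:7493718-7494694 (274.19), was 742 kb from Mel18. The 5 regions closest to Mel18 were likewise Cbx2 alone, at chr9:91289834-91290801, chr6:124943650-124945705, chr13:78301173-78301889, chr6:22240610-22241396 and chr3:88021981-88025124. Their Cbx2 scores were 107.63, 62.88, 52.47, 51.14 and 203.82. Farthest from Mel18 were chr9:4260030-4260785 and chr9:9238440-9239844, at 10294 and 5315 kb, followed by 3 regions of chromosome 12, the one from 92826454 and those at chr12:21422864-21424150 and chr12:21574200-21574951. Of these 5 remote regions, 2 held Cbx2 alone, 2 Ring1b only and 1 Ring1b with RYBP.

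With ESC Mel18 only, the regions with the highest Cbx2 scores lay at the starts of chromosomes, at chr16:3231477-3235587 (337.05) and chr4:3006846-3013716 (319.60). The latter held the widest Cbx2 peak of the 928 regions, 6513 bp. Of all Cbx2 regions without Mel18, 25 (2.69%, interval 1.75 to 3.95) began before 4 Mb of their chromosome, against 13 of 2516 with Mel18 (0.517%, interval 0.275 to 0.882) and 1.15% of all merged regions. Among these 25, 12 held Cbx2 alone, 7 RYBP only, 3 ESC Mel18 only and 3 other combinations. Of all 928 regions, Cbx2 alone made up 46.1%, RYBP only 13.4% and ESC Mel18 only 2.26%. Intervals among the 25 were 27.8 to 68.7% for Cbx2 alone and 12.1 to 49.4% for RYBP only (28.0%). Both held the share over all 928 regions. For ESC Mel18 only the interval was 2.55 to 31.2%, just above that share, and rested on 3 regions. Whether peaks at chromosome starts reflect binding was not tested. The shares with Ring1b, RYBP and ESC Mel18 were 35.3, 46.6 and 20.4% without these 25 regions. After the chromosome 4 region, the widest Cbx2 peaks were at chr5:122284905-122289921 (5017 bp, with Ring1b and RYBP), the chromosome 17 region from 83612223 (4696 bp), chr17:27451460-27455992 (4533 bp, Cbx2 alone) and chr1:77508889-77513182 (4294 bp, with all 3 other lists).

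Most Cbx2 regions without Mel18 had no other such region within 10 kb, a count not made for other regions. Joining those within 10 kb of each other left 854 single regions, 26 pairs, 4 groups of 3 and 2 groups of 5. A group of 5 and a group of 3 lay in the same stretch of chromosome 17, at chr17:27431879-27458891 and chr17:27492842-27514074. Across the 82196 bp from the first to the last, all 8 Cbx2 peaks stood without Mel18, Ring1b or RYBP, and the other lists had 1 peak, an ESC Mel18 peak of 1275 bp at chr17:27461882-27463156. The 8 Cbx2 scores ran from 55.1 to 126 and the widths from 1536 to 4533 bp, and the nearest MES Mel18 peak was 133 kb away. The second group of 5 lay at chr3:25431198-25455137, also of Cbx2 alone, with scores from 51.2 to 81.1 and no Mel18 peak for 387 kb.

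The regions were spread over all 19 chromosomes. The share of Cbx2 regions without Mel18 ranged from 21.8% on chromosome 3 to 31.6% on chromosome 17, with 24 to 76 regions per chromosome. Ring1b was found at 20.8 to 45.9%, RYBP at 36.5 to 54.9% and ESC Mel18 at 11.6 to 32.4% of the regions of a chromosome. In each of the 19 chromosomes RYBP was found at a larger share of these regions than Ring1b. Some gaps were small, as on chromosome 15 with 48.5% for RYBP and 45.5% for Ring1b among 33 regions. All chromosomes come from the same single RYBP and Ring1b lists, so they do not replicate this order.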

How the data were processed

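The 5 peak lists gave positions and a score for each peak, a score deposited by the authors with no scale stated in the files. Peak names carry a MACS tag, per the file headers and peak names. Bowtie, TopHat and the mm9 build are listed per the submitters' processing notes. The caller's version, settings, control and pooling are not given in the sources used here. Regions were built on chromosomes 1 to 19 with Python 3.11.15, pandas 2.3.3 and numpy 2.4.6. A rebuild with bedtools 2.31.1 differed in 0 members, and the scripts were tested on simulated data. Intervals on shares are Clopper-Pearson at 95%, and that of the median distance is from binomial order statistics (scipy 1.17.1). Figures used matplotlib 3.10.9. Each group had 1 sample, so no test was made. Distances are gaps from the edge of a merged region to the nearest MES Mel18 peak. Members and lists were chosen with earlier results of these data known. Named regions were the 2 of highest Cbx2 score in each of 8 combinations, the 5 widest, the 5 farthest from and 5 nearest to Mel18, and the 3 largest groups of neighbours. Alternatives changed overlap, score cut, unit, chromosomes and distance. RNA-seq and IgG samples, gene names and sequences were not analysed here.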

Additional observations from a re-analysis of the deposited data

How the results depend on the processing

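Under 10 alternative settings, 30 of 57 recomputed shares and distances lay inside the interval of the reported value and 27 outside it. For the median distance this was a 95% interval of the median from order statistics, 117 to 155 kb. Of 10 recomputed numbers of regions, 8 lay within 1.5 times of 928, from 657 to 957. With the upper 50% of each list by score, 188 regions were left (10.9% of Cbx2 regions), with Ring1b at 55.3%, RYBP at 54.3%, ESC Mel18 at 33.5%, none at 21.8% and a median distance of 273 kb. That setting also drops low Mel18 peaks, so it can add regions. With the upper 50% of the Cbx2 list alone, 40 regions were left (2.33%), with 45.0, 52.5, 32.5 and 27.5%. With peaks within 1 kb joined, the share was 25.3%, the partners stood at 39.8, 52.6, 23.3 and 39.5%, and the distance was 174 kb. At least 10 kb from Mel18, the values were 39.1, 53.3, 23.1 and 39.5%, at 211 kb. With Cbx2 peaks of at least 1 kb, the share was 21.1%, and the partners stood at 45.4, 61.2, 27.5 and 29.7%. This last setting and the one without chromosome starts were chosen after seeing the data.

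The share with each partner was higher with than without Mel18 in the main setting and in the 6 alternatives for which both shares were computed, by 42.0 to 61.5 percentage points for Ring1b, 27.7 to 42.5 for RYBP and 50 to 61.5 for ESC Mel18. RYBP exceeded Ring1b among regions without Mel18 in each of these except the upper 50% of each list. With the upper 50% of the Cbx2 list this order rested on 40 regions. There the intervals for RYBP (36.1 to 68.5%) and Ring1b (29.3 to 61.5%) overlapped, and the shares equalled those of the third Cbx2 score quartile. No paired analysis was possible because every list came from a single sample. Depth is unknown, so an absent peak is a peak not called at this threshold.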

Other observations

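The X chromosome, not counted above, held 72 Cbx2 regions, of which 10 had no MES Mel18 peak. Of these 10, 2 held Ring1b, 3 RYBP, 3 ESC Mel18 and 5 none of them. The Y chromosome held 1 Cbx2 region, without Mel18 and with RYBP.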
